A study of Mus musculus with 24 samples.

Results

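Histone marks on the chromatin of lung endothelial cells, the cells that line the blood and lymph vessels of the lung, were read as a map of 4 marks in mice labelled wt. The map holds the 4 peak lists of this genotype, out of 8 lists in the series, and these lists stand for 12 of the 24 samples. The 12 samples fall into 4 groups of 3, 1 group for each of the antibodies against H3K4me1, H3K27ac, H3K4me3 and H3K27me3. Cells came from mouse lung and were isolated by fluorescence-activated sorting. ACT-seq was then applied, in which a transposase bound to an antibody cuts and tags DNA where the antibody binds. Yeast nuclei with a transposase complex directed at histone H2B were added as a spike-in. For strain, age, sex, sort markers and any Cre driver or allele carried by the wt mice, the sources used here give nothing. Each mark is represented by a single list with no value per sample and no height or score per peak. Sequencing depth is therefore unknown, no spread between replicates could be computed and no difference was tested. Brackets after a share hold its 95% interval (exact Clopper-Pearson), in which each peak or gene counts as independent and the error is that of counting alone.

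H3K4me1 is known from enhancers and from the flanks of promoters, and H3K27ac from enhancers and promoters in use. H3K4me3 is placed at the starts of genes, mainly where CpG dinucleotides are dense. H3K27me3 is written by Polycomb repressive complex 2 at genes that are held silent, such as the master regulators of other lineages, and its occurrence together with H3K4me3 is called bivalent. In cells pooled for 1 library, a region that carries several marks can hold them on the same chromosome copy or on copies from different cells, and the lists do not separate these cases.

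The promoters of 10 genes show the kinds of start that the map distinguishes. Below are the 250 bases before the start of transcription, 5′ to 3′ on the strand of the gene, from RefSeq for GRCm38.p6 (mm10), with every CpG in capitals. They were taken in alphabetical order from the gene lists described further on, 2 for each combination of marks. Only genes with 1 listed start, equal to the annotated boundary of the gene, were eligible. No annotated gene could overlap these bases, and each widest peak of a mark had to reach into them. Eng, an endothelial co-receptor of the TGF-beta family, and Ets2, an ETS transcription factor, carried H3K4me1, H3K27ac and H3K4me3 without H3K27me3. Atf3 and Btg2, genes induced early after stimulation, carried all 4 marks. Dlx2 and Isl1, homeobox factors of neural and other lineages, carried H3K27me3 with H3K4me1. The starts of Neurog1, a neuronal factor, and Wnt1, a secreted ligand, had H3K27me3 alone. Cd3g, a chain of the T cell receptor complex, and Cd68, a macrophage glycoprotein, had no peak of any mark.
Eng (chr2:32646345-32646594, plus strand): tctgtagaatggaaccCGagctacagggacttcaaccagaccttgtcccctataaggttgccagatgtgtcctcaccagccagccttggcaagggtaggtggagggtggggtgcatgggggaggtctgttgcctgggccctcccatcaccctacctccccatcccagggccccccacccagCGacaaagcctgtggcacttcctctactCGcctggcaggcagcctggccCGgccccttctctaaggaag
Ets2 (chr16:95702157-95702406, plus strand): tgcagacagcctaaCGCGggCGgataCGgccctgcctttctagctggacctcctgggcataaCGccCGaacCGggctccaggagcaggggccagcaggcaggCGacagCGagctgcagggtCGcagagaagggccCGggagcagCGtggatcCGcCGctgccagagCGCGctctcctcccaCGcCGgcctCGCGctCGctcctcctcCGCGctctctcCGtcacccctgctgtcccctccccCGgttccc
Atf3 (chr1:191183334-191183583, minus strand): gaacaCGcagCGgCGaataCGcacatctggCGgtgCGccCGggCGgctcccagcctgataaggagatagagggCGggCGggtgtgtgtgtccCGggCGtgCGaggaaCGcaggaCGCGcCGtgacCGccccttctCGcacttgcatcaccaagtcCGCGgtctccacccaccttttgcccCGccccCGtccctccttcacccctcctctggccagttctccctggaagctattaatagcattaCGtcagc
Btg2 (chr1:134079156-134079405, minus strand): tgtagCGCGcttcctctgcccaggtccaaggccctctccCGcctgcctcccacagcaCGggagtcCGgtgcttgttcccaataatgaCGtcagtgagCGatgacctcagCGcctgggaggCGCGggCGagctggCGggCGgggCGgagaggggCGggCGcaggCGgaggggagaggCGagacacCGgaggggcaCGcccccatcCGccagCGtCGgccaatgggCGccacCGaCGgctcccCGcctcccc
Dlx2 (chr2:71546755-71547004, minus strand): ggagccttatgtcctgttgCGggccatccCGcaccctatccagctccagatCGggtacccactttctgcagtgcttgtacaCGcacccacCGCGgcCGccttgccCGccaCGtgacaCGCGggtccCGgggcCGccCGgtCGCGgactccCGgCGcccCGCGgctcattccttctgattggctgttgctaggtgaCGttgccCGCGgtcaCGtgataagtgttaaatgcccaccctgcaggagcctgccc
Isl1 (chr13:116309689-116309938, minus strand): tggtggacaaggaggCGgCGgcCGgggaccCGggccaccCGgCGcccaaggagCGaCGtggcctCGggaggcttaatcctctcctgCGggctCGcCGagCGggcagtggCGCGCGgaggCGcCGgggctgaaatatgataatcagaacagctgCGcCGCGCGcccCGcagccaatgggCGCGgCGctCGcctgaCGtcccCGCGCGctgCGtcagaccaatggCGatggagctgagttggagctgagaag
Neurog1 (chr13:56252181-56252430, minus strand): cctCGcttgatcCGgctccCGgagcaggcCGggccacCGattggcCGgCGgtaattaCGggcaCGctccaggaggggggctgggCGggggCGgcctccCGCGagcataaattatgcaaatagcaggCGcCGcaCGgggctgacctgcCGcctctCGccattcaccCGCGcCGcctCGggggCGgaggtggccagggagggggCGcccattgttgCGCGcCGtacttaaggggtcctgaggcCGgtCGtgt
Wnt1 (chr15:98789607-98789856, plus strand): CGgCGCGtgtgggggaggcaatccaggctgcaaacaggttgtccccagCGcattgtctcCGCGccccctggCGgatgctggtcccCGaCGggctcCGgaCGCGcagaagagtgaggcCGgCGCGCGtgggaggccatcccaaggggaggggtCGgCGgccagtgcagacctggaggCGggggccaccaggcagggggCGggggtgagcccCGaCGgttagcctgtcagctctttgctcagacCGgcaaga
Cd3g (chr9:44980432-44980681, minus strand): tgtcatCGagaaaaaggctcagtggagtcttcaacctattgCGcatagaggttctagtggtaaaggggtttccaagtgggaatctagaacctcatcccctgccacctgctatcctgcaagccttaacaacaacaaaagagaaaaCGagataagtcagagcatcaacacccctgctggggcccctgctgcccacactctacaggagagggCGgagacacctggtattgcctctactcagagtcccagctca
Cd68 (chr11:69666171-69666420, minus strand): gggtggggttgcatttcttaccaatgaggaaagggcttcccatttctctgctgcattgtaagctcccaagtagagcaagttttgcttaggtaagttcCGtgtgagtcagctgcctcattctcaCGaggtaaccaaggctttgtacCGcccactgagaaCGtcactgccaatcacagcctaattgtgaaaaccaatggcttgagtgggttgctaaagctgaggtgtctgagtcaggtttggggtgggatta

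CpG counts in these 250 bases were 25 for Ets2, 24 for Atf3, 27 for Btg2, 24 for Dlx2, 33 for Isl1, 29 for Neurog1 and 23 for Wnt1, and 4 each for Cd3g and Cd68. Eng, with 4 CpGs, was as poor in them as the unmarked pair although it carried the 3 active marks. At Eng, on chromosome 2, the H3K4me1 peak ran from 32646308 to 32646689, H3K27ac from 32646354 to 32647041 and H3K4me3 from 32646349 to 32647069, so that all 3 covered most of the sequence shown. At Atf3, on chromosome 1, the 4 peaks began between 191182965 and 191183049 and ended between 191183708 and 191183829, and each held all 250 bases. Marks at Atf3 thus lay on top of each other and not side by side. The printed genes were chosen with each widest peak reaching these bases, so such stacking is partly set by the choice. Wnt1, on chromosome 15, had 1 peak, of H3K27me3, from 98789629 to 98790190.

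Lists differed in size and in the width of their peaks. H3K27ac had the most peaks, 81112, and the narrowest, with a median of 215 bp. H3K4me1 had 49363 peaks with a median of 384 bp, H3K27me3 20918 with a median of 358 bp, and H3K4me3 14984 with a median of 506 bp. All peaks lay on chromosomes 1 to 19. Together they covered 44.2 Mb. The widest peak of any list, of H3K27me3, measured 3822 bp, so no domain wider than this stood in the lists as 1 peak.

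Peaks of different marks that overlapped by at least 1 bp were merged, which turned 166377 peaks into 111509 regions. Of these regions 69.4% (69.1% to 69.6%) carried 1 mark, 19.6% carried 2, 6.05% carried 3 and 5.01% (4.88% to 5.14%) carried all 4. Regions grew wider and lay more often at gene starts with each mark: the median width went from 188 bp with 1 mark to 559, 781 and 951.5 bp, and the share within 1000 bp of the start of a protein-coding gene went from 6.32% to 11.8%, 52.8% and 81.6%. A merged region is at least as wide as its widest peak, so part of the rise in width is built into the merging. Each of the 15 possible combinations occurred.

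**Figure D1:**
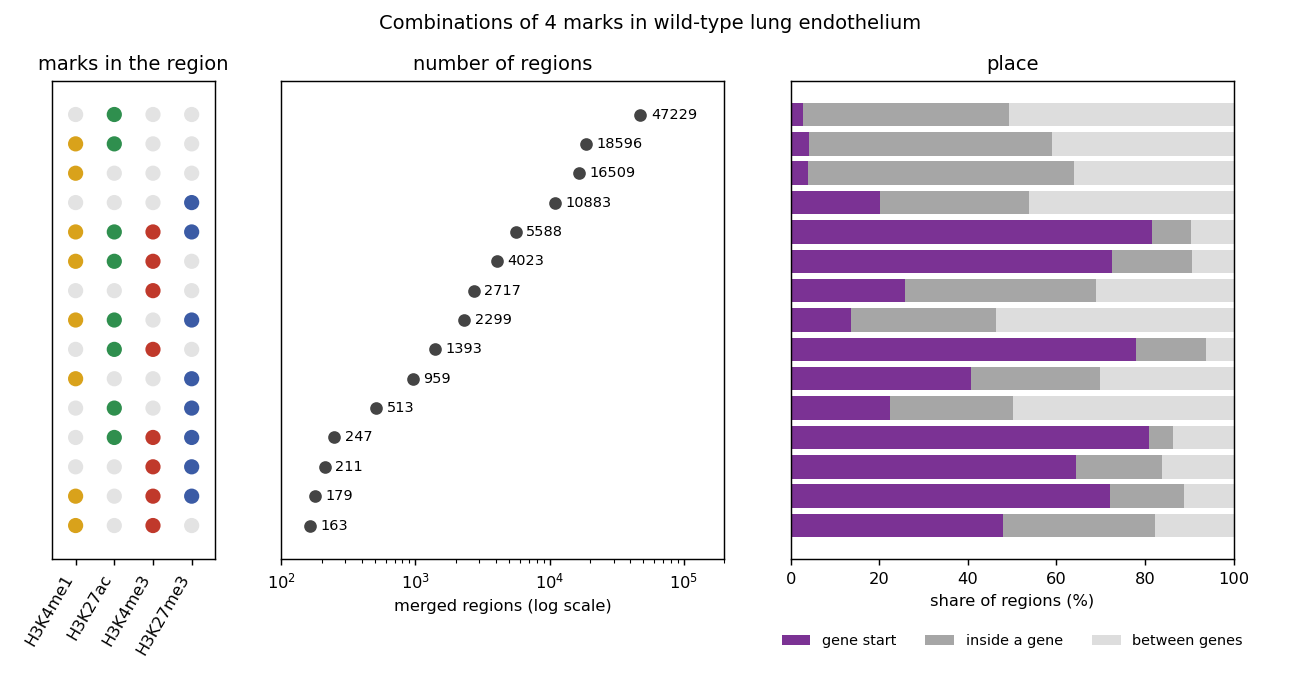
Merged regions of each of the 15 combinations of marks in the wild-type map (left, coloured dots are the marks present), their number on a log scale (middle) and the share at gene starts, inside genes and between genes (right). H3K27ac alone leads with 47229 regions and lies mostly away from starts, whereas all 4 marks together stand at gene starts in 81.6% of 5588 regions.

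Regions away from starts were mainly of H3K27ac and H3K4me1. H3K27ac alone formed 47229 regions, 42.4% of all, with a median of 162 bp, and 2.88% of them lay at gene starts. The pair H3K4me1 and H3K27ac, the usual signature of active enhancers, formed 18596 regions with a median of 556 bp, of which 4.12% lay at starts, 54.8% inside genes and 41.1% between genes. H3K4me1 alone, the signature often called primed, formed 16509 regions with a median of 241 bp, 60.1% of them inside genes. Median distances to the nearest start were 59.0 kb for H3K27ac alone, 34.4 kb for the pair and 29.3 kb for H3K4me1 alone.

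H3K4me3 with other marks lay mostly at gene starts. All 4 marks met in 5588 regions, 81.6% (80.6% to 82.6%) of them at starts. The 3 active marks, H3K4me1, H3K27ac and H3K4me3, met without H3K27me3 in 4023 regions, 72.5% (71.1% to 73.9%) at starts. H3K27ac with H3K4me3 gave 1393 regions, 77.9% at starts. H3K4me3 by itself formed 2717 regions with a median of 228 bp, and 25.8% of these were at starts. Starts also held 2193 regions of H3K27me3 alone and 1359 of H3K27ac alone, of 15581 regions at starts.

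H3K27me3 appeared in 2 settings. In the first it stood alone, in 10883 regions with a median of 338 bp, of which 20.2% lay at starts and 46.2% between genes. In the second it sat with active marks. Besides the 5588 regions with all 4 marks, 2299 held H3K4me1, H3K27ac and H3K27me3 without H3K4me3, and most of these were away from starts: 13.7% lay at starts, 32.7% inside genes and 53.5% between genes, and the median distance to a start was 35.9 kb. H3K4me3 and H3K27me3 without H3K27ac, the strict bivalent pattern, occurred in 211 regions without H3K4me1 and 179 with it, 390 in all, and in 1218 with only the 14984 widest peaks of each list. H3K4me1 with H3K27me3 alone was found in 959 regions, 40.8% at starts.

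How much of the region each mark filled separated these settings. In regions with all 4 marks H3K27ac filled a median of 92.4% of the span, H3K4me3 81.0%, H3K4me1 60.4% and H3K27me3 45.5%. In regions with H3K4me1 and H3K27me3 alone H3K27me3 filled 99.1% and H3K4me1 59.2%. In the 211 regions with H3K4me3 and H3K27me3 alone H3K27me3 filled 98.3% and H3K4me3 47.4%. H3K27me3 was the narrow partner with all 4 marks and, at 47.1%, with H3K4me1 and H3K27ac, and the wide one in these regions without H3K27ac. The 513 regions with H3K27ac and H3K27me3 alone were the exception, with H3K27me3 over 94.8% of the span and H3K27ac over 58.7%. Of the 5588 regions with all 4 marks, 98.4% had every pair of marks in direct overlap.

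Counted by peak, 77.4% (76.7% to 78.1%) of H3K4me3 peaks overlapped H3K27ac, 66.8% overlapped H3K4me1 and 42.3% overlapped H3K27me3. H3K4me1 peaks met H3K27ac at 63.5%, whereas H3K27ac peaks, which are more numerous, met H3K4me1 at 38.5%. With only the 14984 widest peaks of each list these 2 shares were 58.1% and 58.1%. Overlaps of these marks were mostly 1 to 1, with 31356 H3K4me1 and 31244 H3K27ac peaks in the full lists. Lists of equal size therefore give nearly equal shares by construction. H3K27me3 peaks met H3K4me1 at 43.1%, H3K27ac at 41.4% and H3K4me3 at 29.8%. Equal numbers of widest peaks also moved H3K4me3 on H3K27ac to 56.0%, on H3K4me1 to 28.7% and on H3K27me3 to 35.1%. H3K27me3 on H3K4me1 became 24.4%, on H3K27ac 31.1% and on H3K4me3 34.3%. These shares moved with peak width. Among the narrowest 10% of H3K27ac peaks 9.81% (9.17% to 10.5%) overlapped H3K4me1, and among the widest 10%, from 773 bp up, 94.2% (93.7% to 94.7%) did. H3K4me3 peaks overlapped H3K27ac at 43.0% in their narrowest decile and 99.1% in their widest.

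H3K27me3 did not follow this course. Its overlap with H3K27ac was 29.2% in decile 1 of width, 51.6% (49.4% to 53.8%) in decile 7 and 24.4% (22.6% to 26.3%) in decile 10, from 948 bp up. Overlap with H3K4me3 went from 15.1% to 41.5% and back to 23.8% at the same steps, and overlap with H3K4me1 from 29.1% to 52.5% and 33.7%. A wide peak has more bases with which to touch another, and each overlap of the other 3 marks was highest in 1 of the 3 widest deciles. The widest H3K27me3 peaks were therefore less often on active marks than those of middle width.

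**Figure D2:**
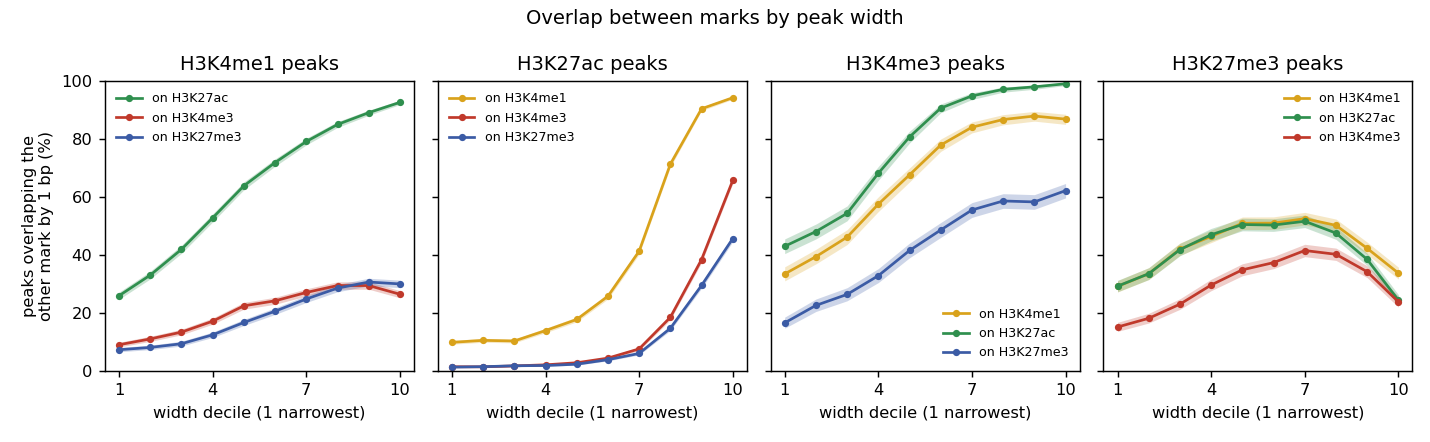
Share of the peaks of each mark (1 panel each) that overlap another mark by at least 1 bp, by deciles of peak width from 1 (narrowest) to 10 (widest), with exact 95% intervals as bands. Lines climb for H3K27ac and H3K4me3, while H3K27me3 peaks reach 51.6% on H3K27ac in decile 7 and stand at 24.4% in decile 10.

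At promoters, H3K4me1 is described as flanking H3K4me3 on both sides. In these lists separate H3K4me1 peaks over both edges were found at 66 of 14984 H3K4me3 peaks (0.440%). At 14.2% of H3K4me3 peaks, with a median width of 270 bp, 1 H3K4me1 peak spanned the whole peak, so that both edges were covered at 2187 in all. For these counts an H3K4me1 peak had to cover the edge base itself, so one lying just outside was not counted. With H3K4me1 counted within 500 bp on either side of each edge, the 2187 became 8905 of 14984. H3K4me1 lay over 1 edge at 29.8% and only inside the H3K4me3 peak at 22.4%, and the latter were wide, with a median of 874 bp. No H3K4me1 peak touched the remaining 33.2%, whose median width was 275 bp.

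The overlap had a direction. Of 13797 genes with 1 listed start, 5679 had an H3K4me3 peak over it. H3K4me1 covered the upstream edge alone at 1798 of these starts, 31.7% (30.5% to 32.9%), and the downstream edge alone at 448, 7.89% (7.20% to 8.62%). Both edges were covered at 8.08% and neither at 52.4%. The peaks themselves were placed off centre. H3K4me3 peaks over a start reached a median of 283 bp upstream and 407 bp downstream, H3K27ac peaks 345 and 379 bp, and H3K4me1 peaks 255 and 179 bp. H3K4me3 thus leaned into the gene and H3K4me1 away from it.

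H3K27me3 over a start leaned either way according to its company. At starts with all 4 marks it reached a median of 248 bp upstream and 135 bp downstream. At starts with H3K27me3 alone it reached 298 bp upstream and 470.5 bp downstream. At 1000 bp downstream it covered 27.2% of the 986 starts with H3K27me3 alone and 25.9% of the 224 with H3K4me1 and H3K27me3, against 2.00% of the 3254 starts with all 4 marks. No untargeted control was analysed here, and the part of transposition into accessible DNA in the narrow H3K27me3 peaks at active starts was not tested.

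**Figure D3:**
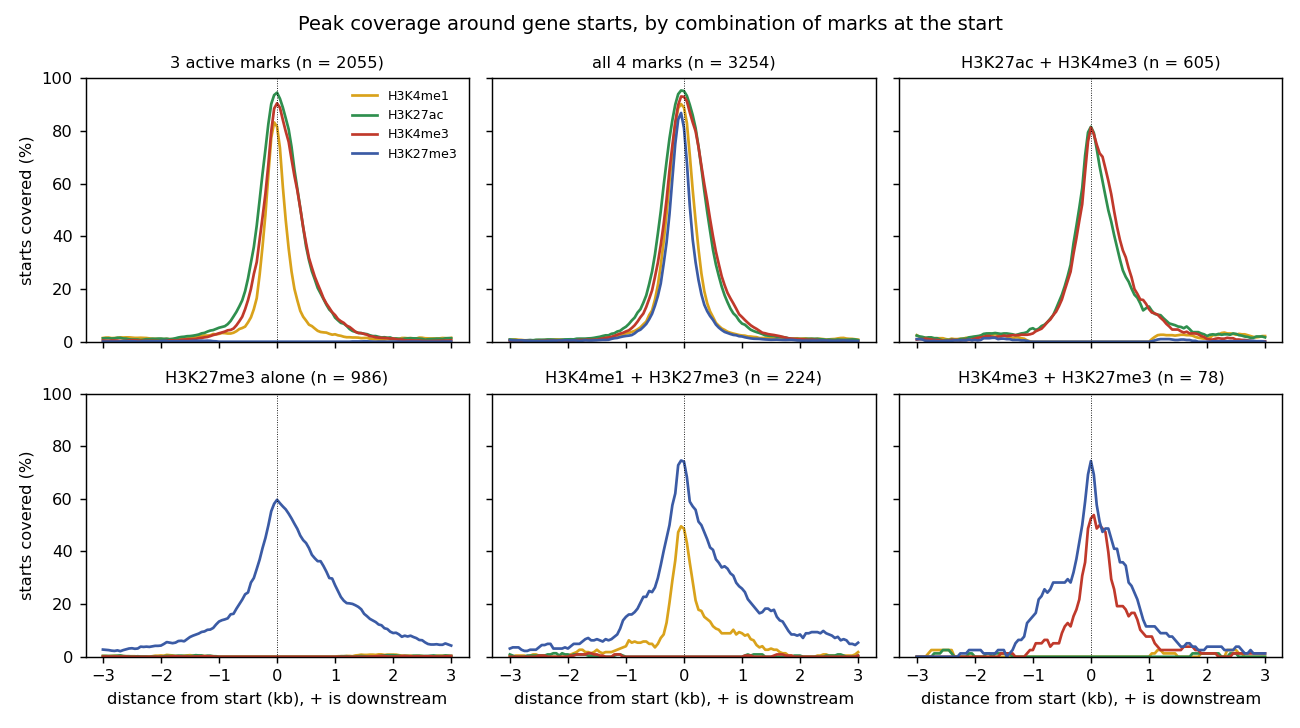
Share of gene starts covered by a peak of each mark, from 3000 bp upstream to 3000 bp downstream (x axis in kb, positive is into the gene), for genes with 1 listed start grouped by their combination of marks within 1000 bp. With all 4 marks the 4 curves share 1 narrow summit near the start, and with H3K27me3 alone the curve is broad and skewed into the gene, with 27.2% of starts covered at 1000 bp.

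Genes were then classed by the peaks within 1000 bp of a start, over 20665 protein-coding genes. H3K4me1 was present at 47.5% of genes, H3K27ac at 52.1%, H3K4me3 at 47.9% and H3K27me3 at 38.5%. No mark was found at 7070 genes, 34.2%. All 4 marks met at 5044 genes, 24.4%, and the 3 active marks without H3K27me3 at 3147, 15.2%. H3K27me3 was the only mark at 1648 genes, 7.97%, and joined only by H3K4me1 at 357, 1.73%. H3K27ac with H3K4me3 was found at 934 genes, 4.52%, H3K4me1 with H3K27ac at 500, 2.42%, and H3K27ac alone at 488, 2.36%. H3K4me1, H3K27ac and H3K27me3 met at 303, 1.47%, H3K4me1 stood alone at 272, 1.32%, and H3K4me3 alone at 239, 1.16%. Less frequent were H3K27ac, H3K4me3 and H3K27me3 (214 genes, 1.04%), H3K27ac with H3K27me3 (128, 0.619%) and H3K4me1 with H3K4me3 (63, 0.305%).

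Nearly all genes with both H3K4me3 and H3K27me3 also had H3K27ac. Of 5516 such genes 95.3% (94.7% to 95.9%) carried it, close to the 94.3% of all 9899 genes with H3K4me3. That left 126 genes with H3K4me3 and H3K27me3 alone, 0.61%, and 132, 0.639%, with H3K4me1 added. Of the 2263 genes with H3K27me3 and no H3K27ac, H3K4me1 was present at 21.6% (19.9% to 23.4%) and H3K4me3 at 11.4% (10.1% to 12.8%). Over all 9907 genes without H3K27ac these shares were 8.32% and 5.65%.

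Gene lists for cell types and functions were set beside these shares. Their members were chosen by known roles, and each count is read against the share over all genes. H3K27me3 was at 52.9% of the 10758 genes with H3K27ac, so for lists rich in H3K27ac that share is the nearer comparison. The sort label was looked at first. Of 38 pan-endothelial genes H3K27ac was present at 36, H3K4me3 at 33 and H3K27me3 at 10, against 52.1%, 47.9% and 38.5% of all genes. The 3 active marks without H3K27me3 were the most frequent combination, at 20 of the 38, where 15.2% of all genes had it. These 20 included the junction cadherin Cdh5, the receptors Kdr and Tek, the TGF-beta family receptors Eng and Acvrl1, and the SoxF factors Sox17 and Sox18. At Sox17 the H3K4me3 peak measured 2303 bp, the widest of the list. Pecam1 carried H3K27ac of 538 bp and H3K4me3 of 706 bp and no H3K4me1.

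All 4 marks were present at 9 of the 38 pan-endothelial genes, close to the 24.4% of all genes. Of the 33 with H3K27ac and H3K4me3, the same 9 had H3K27me3. Over all genes with both of those marks 56.3% had it. These 9 were Tie1, Flt1, Erg, Cldn5, Sox7, Nos3, Clec14a, S1pr1 and Hhex. Their H3K27me3 peaks ran from 155 bp at Sox7 to 1132 bp at Erg, the ETS factor of endothelial identity. Vwf, the clotting factor of storage granules, had H3K4me1, H3K27ac and a 323 bp H3K27me3 peak without H3K4me3. No peak lay within 1000 bp at Ets1 and Lmo2. None of the pan-endothelial genes without the pair H3K27ac and H3K4me3 (Ets1, Lmo2, Vwf, Fli1 and Icam2) has a start in the promoter table. Some genes with the pair also lack one, among them Pecam1, Cdh5, Sox17, Sox18, Nos3 and Acvrl1. Both annotated ends were used for all of these genes, and for Ets1 the nearest H3K4me1 peak lay 1287 bp away.

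Other cell types gave a different picture. Of 24 leukocyte genes 20 were unmarked, where 34.2% of all genes were. Ptprc, the pan-leukocyte phosphatase CD45, was among the 20, with its nearest H3K27ac peak 8238 bp away. H3K4me3 was found at 1 of the 24, Ikzf1, a lymphoid factor, as a 257 bp peak beside an H3K27me3 peak of 2316 bp. H3K27ac was at 2, Ikzf1 and Spi1, and Spi1 also had H3K4me1 and H3K27me3. Of 25 lung epithelial genes 4 had H3K4me3, 7 H3K27ac and 12 H3K27me3, against 47.9%, 52.1% and 38.5% of all genes. The 4 with H3K4me3 were Sftpc, Hopx, Rtkn2 and Etv5. Sftpc, the surfactant protein C gene of alveolar type II cells, carried H3K4me3 of 1074 bp, H3K27ac of 788 bp, H3K4me1 of 677 bp and H3K27me3 of 669 bp. Nkx2-1, the lung epithelial master factor, had H3K27me3 alone, 2225 bp wide. Sftpb and Scgb1a1 carried H3K4me1 and H3K27ac without the other 2 marks, and the start of Sftpb lay under both peaks. Sftpc, Rtkn2, Scgb1a1 and Spi1 have no listed start. Both annotated ends were used for them, so their peaks may lie at the end of the gene and not at its promoter. Ager and Sftpa1, markers of alveolar type I and type II cells, had no mark, and the adhesion gene Epcam had a 518 bp H3K27me3 peak.

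Of 22 mural and mesenchymal genes 13 had H3K27me3 and 1, the growth factor gene Fgf10, had H3K4me3, against 38.5% and 47.9% of all genes. Pdgfrb, a pericyte receptor, and the collagen genes Col1a1 and Col1a2 carried H3K27me3 alone, at 250, 525 and 1546 bp, while Pdgfra, Acta2 and Dcn were unmarked. H3K4me3 was thus at 33 of 38 pan-endothelial genes and at 1 of 24 leukocyte, 4 of 25 epithelial and 1 of 22 mural and mesenchymal genes. The part of other cells in the marks at Sftpc, Sftpb, Scgb1a1, Ikzf1, Spi1 and Fgf10 was not tested.

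**Figure D4:**
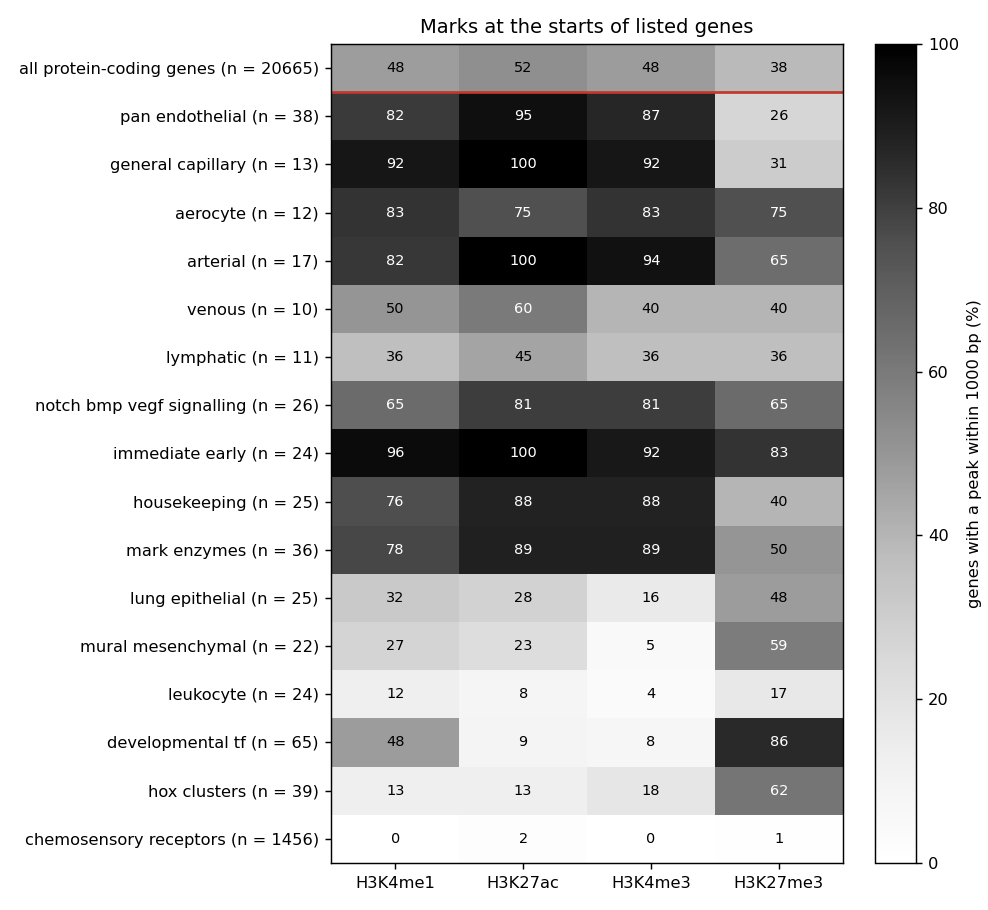
Share of the genes of each list with a peak of each mark within 1000 bp of a start (darker is higher, number in percent, number of genes in brackets), with all 20665 protein-coding genes in the top row. H3K27ac marks 36 of 38 pan-endothelial genes and 2 of 24 leukocyte genes, while H3K27me3 marks 56 of 65 developmental factors.

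Endothelial subtypes did not share 1 combination. General capillary genes, the common capillary cells of the alveolus, had H3K27ac at 13 of 13 and H3K27me3 at 4. Over all genes these shares were 52.1% and 38.5%, so the H3K27me3 count of this list, at 30.8%, lay near that of all genes. It lay below the 52.9% of genes with H3K27ac. H3K4me3 peaks of the general capillary genes had a median of 850.5 bp and reached 2671 bp at Bmp6, a ligand. Aerocyte genes, of the wide capillary cells of gas exchange, had H3K27me3 at 9 of 12, H3K4me3 at 10 and H3K27ac at 9. The shares of all genes were 38.5%, 47.9% and 52.1%. Car4, a membrane carbonic anhydrase, had H3K4me3 of 783 bp with H3K27me3 of 377 bp and no H3K27ac, and Chst1, a sulphotransferase, had H3K4me3 of 199 bp with H3K27me3 of 997 bp and no other mark. Ednrb, the endothelin receptor of these cells, had the 3 active marks, with H3K27ac of 1626 bp and no H3K27me3.

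Arterial genes were marked by H3K27ac at 17 of 17 and by H3K27me3 at 11, against 52.1% and 38.5% of all genes. Of all genes with H3K27ac, 52.9% had H3K27me3, so the H3K27me3 count lay nearer to that share. All 4 marks were present at 9 of the 17, where 24.4% of all genes had them. These 9 included the ephrin Efnb2, the Notch ligand Dll4 and the Notch effectors Hey1 and Hey2. At Efnb2 H3K4me3 measured 1860 bp and H3K27me3 461 bp. The receptors Notch1 and Notch4 had the 3 active marks alone. Of 10 venous genes 4 had H3K4me3, 6 H3K27ac and 4 H3K27me3, against 47.9%, 52.1% and 38.5% of all genes. The venous regulator Nr2f2, the chemokine receptor Ackr1 and the adhesion gene Selp had none of the marks. At Nr2f2 the nearest peaks were H3K27me3 at 1636 bp and H3K27ac at 1974 bp.

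Of 11 lymphatic genes 4 had H3K4me3, against 47.9% of all genes. Prox1, the lymphatic master factor, carried all 4 marks, with H3K27me3 of 763 bp as the widest of them. Flt4, the VEGF-C receptor, had H3K27ac of 1474 bp and H3K4me3 of 1137 bp. Pdpn and Foxc2 had H3K27me3 alone, at 574 and 610 bp. Among 26 genes of Notch, BMP and VEGF signalling H3K4me3 and H3K27ac were each at 21 and H3K27me3 at 17, against 47.9%, 52.1% and 38.5% of all genes. The BMP target genes Id1, Id2 and Id3 and the Notch effectors Hes1 and Rbpj carried all 4 marks, and Bmp4 and Pgf, both ligands, H3K27me3 alone.

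Genes induced early after stimulation held H3K27me3 together with active marks. Of 24 immediate early genes 19 carried all 4 marks, where 24.4% of all genes did. H3K27ac was present at 24 and H3K27me3 at 20, against 52.1% and 38.5% of all genes. Of all genes with H3K27ac, 52.9% had H3K27me3. At Fos the widths were 908 bp for H3K4me1, 1167 bp for H3K27ac, 1054 bp for H3K4me3 and 806 bp for H3K27me3. Egr1 had 982, 1201, 581 and 1141 bp in the same order, and Jun 904, 1320, 2166 and 708 bp. H3K4me1 peaks of the immediate early genes were wide, with a median of 701 bp against 461 bp over all genes that have one. Their H3K27me3 peaks had a median of 639.5 bp against 470.5 bp. Myc, Ier2 and Zfp36 had the 3 active marks without H3K27me3.

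Housekeeping genes are used in all cells. H3K4me3 and H3K27ac were each at 22 of 25, against 47.9% and 52.1% of all genes. H3K27me3 was at 10, or 40%, close to the 38.5% of all genes and below the 52.9% of genes with H3K27ac. Among these 10 were Gapdh (415 bp), Eef1a1 (555 bp) and Hsp90ab1 (863 bp). Actb, Ywhaz and Reep5 counted as unmarked, and none of them has a listed start. For Actb peaks of all 4 marks lay between 1100 and 1322 bp from an annotated end. The writers and erasers of the marks were themselves marked: of 36 genes 32 had H3K4me3, 32 had H3K27ac and 18 had H3K27me3. Over all genes the shares were 47.9%, 52.1% and 38.5%. Ezh2, the Polycomb methyltransferase, carried all 4 marks, and its partners Eed and Suz12 the 3 active ones.

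Developmental regulators of other lineages formed the opposite pole. Of 65 such genes 56 had H3K27me3, 6 had H3K27ac and 5 had H3K4me3, against 38.5%, 52.1% and 47.9% of all genes. H3K27me3 was joined by H3K4me1 alone at 25, where 1.73% of all genes had that pair. It stood alone at 24, where 7.97% of all genes had it alone. The 25 included Pax2, Pax3 and Pax6, the neural factors Sox1 and Sox2, and Tbx1 with the widest H3K27me3 peak of the list, 2808 bp. At Pax6 H3K27me3 measured 1691 bp and H3K4me1 474 bp. H3K4me3 with H3K27me3 and without H3K27ac was seen at 1 gene, Gsc, with peaks of 190 and 840 bp. Tbx3, Gata6, Sox9 and Msx1 carried all 4 marks, and Gata6 had H3K27ac of 1515 bp and H3K27me3 of 1491 bp.

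The 8 developmental genes counted as unmarked, among them Hand2, Olig2 and En1, had an H3K27me3 peak 1021 to 2325 bp from the start. Within 2500 bp H3K27me3 was present at 64 of the 65. The exception was Neurog3, whose start lay under a 550 bp H3K4me1 peak and 21969 bp from H3K27me3. The 38.5% of all genes holds for 1000 bp, and no share of all genes is given here for 2500 bp. In the wider window pan-endothelial genes with H3K27me3 also rose, from 10 to 16 of 38, while leukocyte genes stayed at 4 of 24.

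Hox genes, which pattern the body axis, were marked mainly by H3K27me3. Of 39 Hox genes 24 had H3K27me3 and 21 had it alone, against 38.5% and 7.97% of all genes, such as Hoxd12 (2303 bp), Hoxc10 (2009 bp) and Hoxd10 (1863 bp). Hox genes with active marks and no H3K27me3 in this window included Hoxa2, Hoxa4, Hoxb2 and Hoxb4. Hoxd8 had H3K4me3 with H3K27me3 and no H3K27ac, and Hoxb9 had H3K4me1 with H3K27me3 and no other mark. Hoxa5, a gene with a known role in lung development, carried all 4 marks, with H3K4me3 of 508 bp and H3K27me3 of 239 bp, and Hoxb5 had H3K4me3 of 482 bp as its only mark. Chemosensory receptor genes, which are closed in most tissues, served as a floor: of 1456 H3K4me3 was at 4, H3K4me1 at 5, H3K27me3 at 11 and H3K27ac at 23.

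The widest regions of each combination named further genes. With the 3 active marks the widest at a start was at Tsc22d2 on chromosome 3, 3263 bp from 58414234 to 58417496, followed by Cdk6 (2832 bp), a cell cycle kinase, Ptprm (2781 bp), an endothelial receptor phosphatase, Bmp6 (2731 bp) and Znrf1 (2666 bp). With all 4 marks the widest were at Mdga2 (2796 bp), Slit2 (2794 bp), a guidance ligand, Unc5c (2688 bp), a netrin receptor, Ncoa2 (2616 bp) and Thbd (2614 bp), which encodes the endothelial anticoagulant thrombomodulin. The region at Slit2, on chromosome 5 from 47982784 to 47985577, joined 11 peaks, as did that at Gpc6, and no other region held more. With H3K27ac and H3K4me3 alone Rictor (2463 bp) came before Tal1 (2316 bp), a factor of blood and endothelial lineages, and Mef2c (2108 bp), a muscle and endothelial factor, was among the 5 widest.

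At starts, H3K27me3 alone was widest at Kcna2, a potassium channel gene, on chromosome 3 from 107100578 to 107104165, 3588 bp. Col9a2 (3305 bp), Stac (3217 bp), Nwd2 (2926 bp) and Fat3 (2850 bp) followed. At starts too, the regions with H3K4me1 and H3K27me3 were widest at the developmental factors Six4 (3167 bp), Atoh1 (3105 bp), Tbx1 (2996 bp) and Twist1 (2980 bp), with Prkcb (3065 bp), a protein kinase C gene, between them, and away from starts 1 inside Anks1b was wider, at 3822 bp. At starts, those with H3K4me3 and H3K27me3 alone were widest at Gfra1 (2414 bp) and Chrd (2226 bp), the latter a secreted BMP antagonist. With H3K4me1 added the widest at starts were Klhl29 (2846 bp) and Hmga2 (2845 bp).

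Away from starts the widest pair of H3K4me1 and H3K27ac lay inside Rin3 (2325 bp, chromosome 12 from 102341254 to 102343578), 58.8 kb from the nearest start. A region of the pair inside Map4k3 measured 2113 bp and lay 30.2 kb from a start. Summed over a gene and 5000 bp on each side, bases with both marks away from starts were most at Arhgap26, with 22103 bp in 63 pieces over a gene of 775 kb. Prkce (15698 bp), Frmd4a (11930 bp), Tcf4 (11620 bp) and Foxp1 (11350 bp) came next, and all 5 are long genes, from 345 kb at Tcf4 upward. H3K27me3 summed in the same way was most at Prdm16 (12677 bp in 30 pieces), Ptprn2 (12561 bp), Ebf3 (11315 bp), Sox5 (10361 bp) and Prdm6 (9828 bp). Of these Prdm6 is the shortest, at 112 kb.

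The widest region with H3K4me1, H3K27ac and H3K27me3 away from starts measured 3247 bp and lay on chromosome 7 from 70280266 to 70283512, 84.9 kb from Nr2f2, the venous regulator whose own start had no mark within 1000 bp. It overlaps an annotated lncRNA gene. The widest region of the whole map with all 4 marks, 3668 bp on chromosome 17 from 39843119 to 39846786, lay 106 kb from a protein-coding start and overlaps Rn18s-rs5, an annotated pseudogene of 18S ribosomal RNA. The part of reads from repeated ribosomal DNA in it was not tested.

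Promoter sequence differed between the combinations of marks at the start. Over 13797 genes with 1 listed start, the 300 bp promoter held a median of 13 CpGs. The median was 3 (quartiles 1 and 5) for the 5215 unmarked starts, 17 (9 and 25) for the 986 with H3K27me3 alone, 19.5 for the 224 with H3K4me1 and H3K27me3, 22 for the 2055 with the 3 active marks and 24 (18 and 31) for the 3254 with all 4. Starts with H3K27ac alone and with H3K4me1 alone were also poor in CpGs, with a median of 6 each, and those with H3K4me1 and H3K27ac had 9. Among promoters with 0 to 4 CpGs 88.0% had no mark, and among those with 30 or more 2.94% had none. H3K27me3 alone was most frequent at 10 to 14 CpGs, with 13.1% of promoters, and all 4 marks at 30 or more, with 45.5%. The printed Eng promoter, with 6 CpGs in its 300 bp, is among the 9.68% of promoters with 5 to 9 CpGs that had the 3 active marks.

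**Figure D5:**
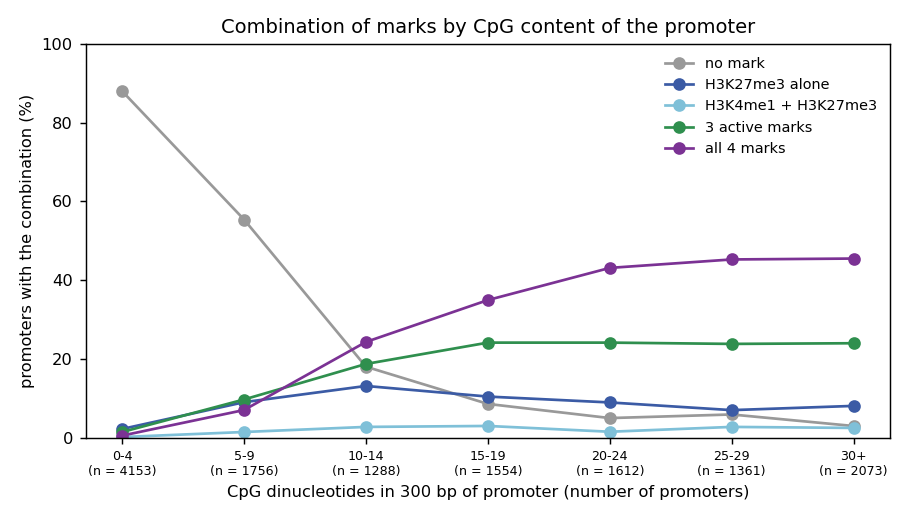
Share of promoters with each of 5 combinations of marks (lines) by the number of CpG dinucleotides in the 300 bp promoter, for 13797 genes with 1 listed start (number of promoters under each bin). Unmarked promoters fall from 88.0% to 2.94% across the bins, while all 4 marks rise from 0.506% to 45.5%.

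Short motifs were counted on both strands of the same 300 bp. The ETS-type motif CCGGAAG was found in 12.2% of all promoters. Its share was 23.3% (with the 3 active marks), 23.6% (H3K27ac and H3K4me3) and 20.0% (all 4), against 4.06% with H3K27me3 alone, 3.57% with H3K4me1 and H3K27me3 and 3.57% with no mark. AGGAAG, which shares the letters GGAAG with it and holds no CpG, was in 33.8% of all promoters. It did not follow CCGGAAG, with 31.6% (3 active marks), 30.9% (all 4), 29.2% (H3K27me3 alone), 23.2% (H3K4me1 and H3K27me3) and 37.4% (no mark). GGGCGG, the GC box, did not make the division of CCGGAAG either. It was in 46.4% of all promoters, in 77.2% of those with all 4 marks and 65.5% with the 3 active marks, and also in 61.3% of those with H3K27me3 alone and 73.7% with H3K4me1 and H3K27me3, against 12.4% of unmarked ones. Promoters with H3K27me3 alone or with H3K4me1 were thus GC-box rich and poor in CCGGAAG. In the 250 bases printed above Neurog1 held GGGCGG 3 times and Wnt1 1 time, and CCGGAAG 0 times each.

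CCAAT was in 39.5% of all promoters. It differed between the active combinations, with 47.0% where all 4 marks were present, 34.5% with the 3 active marks and 26.1% with H3K27ac and H3K4me3. TATAAA was in 26.8% of unmarked promoters and 5.35% of those with all 4 marks, against 14.6% of all. None of the 10 motifs is a measured binding site, and some share letters with CpG, whose number differs between the combinations, so the shares describe letters only.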

How the data were processed

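ACT-seq in wt lung endothelium was analysed from the authors' deposited peak lists, 1 for each of 4 marks. The deposited values, of the unit class other, give for each peak its chromosome, width and end positions. The submitters' processing notes name MACS2 2.1.2.1, Bowtie2 2.2.6, deepTools 3.1.1, SAMtools, Trim Galore 0.4.4 and cutadapt 1.14, and the builds mm10 and R64 (yeast). Peak thresholds, and how the 3 samples of a group entered a list, are not stated in the sources used here. The labels' protocol also lists H3K9me3, which was not analysed here.

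Overlaps used Python 3.11.15 with pandas 2.3.3 and numpy 2.4.6, intervals scipy 1.17.1 and figures matplotlib 3.10.9. A region is a chain of peaks overlapping by at least 1 bp. Genes were the 20665 RefSeq protein-coding genes of GRCm38.p6 on chromosomes 1 to 19. A start is each start listed in the promoter table (16457 genes), and otherwise both annotated ends (4208 genes), since the gene table has no strand. A listed gene's width is that of its widest peak within 1000 bp, and such a peak can belong to a neighbour. Alternatives changed the overlap, the peaks used, the window and the starts. Of 16 gene lists with 1846 names 1842 were found. Genes were named as the widest and most-peaked regions of each combination or as list members. Some genes that this rule names are left out of the text. The map, lists and rules were chosen with earlier results of these data known. The overlap code was tested on 5000 simulated regions, of which 5000 were recovered, and 0 of 14091 overlaps on 1 chromosome differed from an exhaustive search.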

Additional observations from a re-analysis of the deposited data

How the results depend on the processing

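Counts were recomputed under 9 alternatives, 1 of them, genes with a listed start only, chosen after seeing the data. Keeping only the 14984 widest peaks of each list moved most: regions with H3K4me1 and H3K27ac went from 18596 to 4239, with the 3 active marks from 4023 to 1401, with all 4 from 5588 to 2431, and with H3K4me3 and H3K27me3 without H3K27ac from 390 to 1218. Under the same setting genes with the 3 active marks went from 3147 to 1028 and with all 4 from 5044 to 2206, immediate early genes with all 4 from 19 to 12, developmental factors with H3K4me1 and H3K27me3 from 25 to 10 and with H3K4me3 and H3K27me3 without H3K27ac from 1 to 2, H3K4me3 peaks with H3K4me1 over both edges from 2187 to 1392, and starts with H3K4me1 over the upstream and the downstream edge alone from 1798 to 799 and from 448 to 234. This alternative removes peaks of the 3 longer lists by its construction. With H3K4me1 counted within 500 bp of an edge these 3 values were 8905, 720 and 141. Developmental factors with H3K4me3 and H3K27me3 without H3K27ac numbered 4 within 2500 bp and 2 by either annotated end. Pan-endothelial genes with H3K27ac and H3K4me3 went from 33 to 21 with listed starts only, which tests fewer genes. Every pan-endothelial gene tested in that setting carried both marks, so this fall comes from the number of genes tested. The other 61 recomputed counts stayed within 1.5 times their values. No paired analysis was possible because each list carries no samples, and leaving out a replicate was not possible for the same reason. The depth behind each list is unknown.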
